A study of Saccharomyces cerevisiae with 73 samples.

Results

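The arrays described here follow budding yeast in its first 240 min in dextrose medium without amino acids. They were chosen as all arrays of the media SD and SD+ino, at 15, 30, 60, 120 and 240 min after the shift, and number 11 of the 73 arrays in the series. Both media hold dextrose and no amino acids. SD+ino also holds inositol, a precursor of membrane phospholipids, and SD does not. SD is covered by 5 arrays and SD+ino by 6, since the 240 min point of SD+ino has a further entry. It carries the same replicate label as its partner plus the note ojgrid, which is not explained. Whether it is a separate hybridisation is not given, and both were averaged to give 10 culture-time values.

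The study shifted yeast from complete dextrose medium to 13 media that differ in carbon source, amino acids and inositol and followed polyA RNA on whole-genome cDNA arrays. All cells were strain KCN118, derived from S288C, with the ade2 mutation and mating type alpha, and the labels call it wt. The ade2 mutation is therefore in the shifted cells and in the t = 0 cells alike, and whether the media held adenine is not given in the sources used here. Before the shift all cells grew at 28 °C in medium with 2% dextrose and amino acids, and they were then collected by filtration and washed. The labels of the arrays give inositol in that medium, which is followed here, while the study's design text gives it in one place and leaves it out in another, and the sources differ on whether water or buffer was used to wash. Each array set shifted cells (Cy5) against cells from before the shift (Cy3), with no dye swap, so any gene-specific dye bias is part of the values against t = 0. Each medium is a single culture, which limits both media as models. SD and SD+ino serve here as the replicate pair, the p-values measure the spread between these 2 cultures, and that spread holds any effect of inositol. SD+aa, dextrose medium with all amino acids and no inositol, was 1 culture of the same strain that went through the same filtering. SEtOH and SEtOH+ino lack amino acids as well and hold ethanol in place of dextrose.

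Yeast that loses external amino acids must make them all. The activator Gcn4 turns on many synthesis genes when uncharged tRNA accumulates, the Met4 complex turns on sulfate assimilation when sulfur amino acids run short, and the GATA activators Gln3 and Gat1 turn on nitrogen transporters and catabolic genes when preferred nitrogen sources are scarce. The SPS sensor keeps several permease genes active as long as amino acids are present outside the cell. The kinase TORC1 supports transcription of ribosome genes in rich medium, and the activators Msn2 and Msn4 drive a broad set of stress genes when growth slows.

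All values below are log2 ratios of shifted cells over t = 0 cells, so 1 is a 2-fold rise. Where 5 values are listed they stand in the order 15, 30, 60, 120 and 240 min. The deposited values stop at 2 and -2, read here as log10 and so as 100-fold, which is 6.64 on the log2 scale. In these cultures 18 values had reached that ceiling and 1 the corresponding floor, mostly those of MEP2, SUL1 and HSP12, so these changes are understated. Early change means the mean of 15 and 30 min over both cultures, and a gene was called when its adjusted p in limma was below 0.05. Over 5491 genes the 2 cultures correlated with r = 0.962 at 15 min, 0.925 at 30 min, 0.959 at 60 min, 0.855 at 120 min and 0.836 at 240 min, a description across genes, which are not independent replicates. The near-identical copies of many yeast genes, among them most ribosomal protein pairs, HXT6 and HXT7, and the Ty element genes, could not be told apart by cDNA probes, and their values are uncertain to that extent.

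The shift moved most of the transcriptome within 15 min, and most of it had come back by 240 min. At 15 min 2023 genes were higher and 1690 lower than at t = 0, which is 67.6% of the genes tested. The calls numbered 1975 higher and 1604 lower at 30 min (65.2%), 1453 and 1191 at 60 min (48.2%), and 840 and 940 at 120 min (32.4%). At 120 min the side with more genes depended on the scaling, with 959 higher and 786 lower when each array was centred on its median and 1265 and 1106 after quantile normalization. At 240 min 367 genes were still higher and 252 lower (11.3%). The numbers of genes 2-fold or more from t = 0 fell along the same course in each culture, from 1731 to 154 in SD and from 1641 to 203 in SD+ino. In SD+aa, where amino acids stayed, 164 genes were 2-fold from t = 0 at 15 min, 16 at 30 min, 1 at 60 min, 16 at 120 min and 1 at 240 min. SD+aa went through the same filtering and washing and, by the labels, also lost inositol. Of the 107 genes 2-fold higher there at 15 min, 98 belonged to the genes that rose 2-fold or more early here. Of the 57 genes 2-fold lower there, 46 belonged to the early fallers. Over all genes, 14.4% rose and 13.6% fell 2-fold or more early. Both sides are ratios to t = 0 with the same dyes, so any dye bias is common to them.

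**Figure D1:**
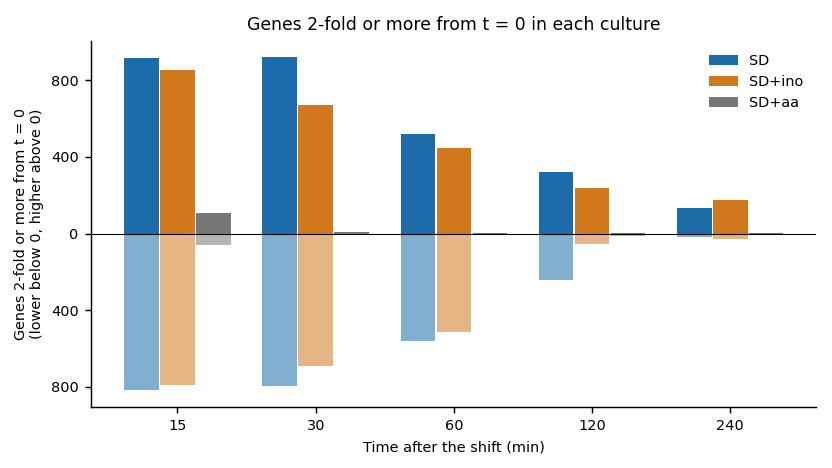
Genes 2-fold or more from t = 0 in each culture at each time, with genes higher than t = 0 above the zero line and genes lower than t = 0 below it, over the 5491 genes tested. SD and SD+ino start at 1731 and 1641 genes and end at 154 and 203, while SD+aa starts at 164 and has 1 at 240 min.

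The early change was called in 76.1% of genes, 41.9% higher and 34.2% lower. Of these, 792 genes rose 2-fold or more (14.4%) and 748 fell 2-fold or more (13.6%). The median over all genes was 0.08. With so many genes called, the counts of the gene groups below are read against the shares of the unblocked fit, and their sizes against that median.

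Among the gene lists, the highest early median belonged to sulfur uptake and sulfate assimilation, the route by which yeast makes the sulfur of methionine and cysteine. All 11 genes of the route that were tested rose, with a median of 4.44. SUL1, a high-affinity sulfate permease, measured 6.64, 6.64, 6.33, 5.82 and 5.56 in SD and 6.64, 6.39, 5.65, 4.70 and 6.01 in SD+ino. It was at or near the limit of the scale in both cultures from the first time point. Its early mean over 2 times in each of 2 cultures was 6.58 ± 0.18 SE (limma adjusted p = 1.08e-08). MET3, the ATP sulfurylase that activates sulfate, measured 5.20, 5.73, 3.97, 3.18 and 3.19 in SD and 5.87, 5.49, 3.52, 2.57 and 2.82 in SD+ino. Both cultures fell from their peak and then held a level near 3 (early mean 5.57 ± 0.14, adjusted p = 9.43e-09). MET10, a subunit of sulfite reductase, rose by a mean of 4.87 and SUL2, the other sulfate permease, by 4.77.

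The remaining methionine genes moved with them less evenly. Of 18 members, 15 rose and 3 fell, with a median of 2.35. STR3, which forms homocysteine from cystathionine, rose by 4.60, MET2, which commits homoserine to methionine, by 4.07, MMP1, an S-methylmethionine permease, by 3.73, and the low-affinity methionine permease MUP3 by 3.71. The members that fell were SAH1 (-1.39), ADO1 (-1.12) and SAM4 (-1.05), which handle S-adenosylhomocysteine, adenosine and the recycling of homocysteine. SEO1, a putative permease of the allantoate permease family, was among the highest early values of all genes. It measured 6.64, 6.26, 3.65, 0.87 and 0.65 in SD and 5.97, 5.67, 1.90, 0.49 and 0.32 in SD+ino, so that a rise near the limit had nearly gone by 120 min in both.

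The genes under nitrogen catabolite repression rose more slowly. Of 21 members, 19 rose early and CAR1, the arginase gene (-0.69), and ASP3-1 (-0.60) fell, with a median of 2.41. GAP1, the general amino acid permease, measured 5.22, 5.49, 6.17, 5.95 and 5.46 in SD and 4.96, 6.57, 6.24, 5.53 and 5.50 in SD+ino. MEP2, the high-affinity ammonium permease, measured 4.42 and 4.40 at 15 min, 6.64 and 6.50 at 30 min, and 6.64 at every later time in both cultures, so its later course is not visible and its small standard error rests on values at the limit. DAL5, the allantoate permease, measured 1.66, 4.92, 6.42, 6.33 and 4.22 in SD and 1.55, 4.57, 5.53, 4.45 and 3.98 in SD+ino, low at 15 min and highest at 60 min in both. The median of the list rose from 1.66 to 3.16 in SD and from 1.43 to 2.39 in SD+ino between 15 and 30 min.

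The synthesis genes of single amino acids differed from pathway to pathway. For arginine 7 of 8 members rose (median 2.30), led by ARG3, the ornithine carbamoyltransferase, and ARG4, the argininosuccinate lyase. ARG3 measured 3.20, 2.19, 3.57, 3.69 and 3.10 in SD and 3.29, 2.12, 3.74, 3.49 and 2.92 in SD+ino. Both cultures dipped at 30 min and recovered by 60 min. For serine and the aspartate family 7 of 12 rose and SER2, SHM1, GLY1, THR1 and THR4 fell (median 1.07), with SER33 and SER3, the first enzymes of serine synthesis, up by 4.07 and 2.84 and GLY1, the threonine aldolase, down by 1.52. For histidine 6 rose and HIS6 fell by 1.33 (n = 7, median 0.85), with HIS4 at 2.71 and HIS5 at 2.42. For the branched-chain amino acids 8 rose and ILV1 and ILV5 fell (n = 12, median 0.49), with LEU1 at 2.19, BAT2 at 1.94 and LEU4 at 1.87. For the aromatic amino acids 6 rose and ARO1, ARO2, ARO4 and ARO7 fell (n = 12, median 0.14), which is little more than the median of all genes. For glutamate, glutamine, asparagine and proline 7 rose and ASN2, PRO1 and PRO2 fell (n = 12, median 0.61), with GDH1, the NADP-linked glutamate dehydrogenase, at 2.72 and PRO1, the first enzyme of proline synthesis, at -2.81.

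Lysine synthesis went the other way. LYS2, LYS4, LYS9, LYS12, LYS20 and LYS21 fell early, LYS1, LYS5 and ARO8 rose, and the median of the 9 genes was -0.72. LYS12, homoisocitrate dehydrogenase, measured -1.38, -2.14, -0.27, 1.22 and 1.19 in SD and -1.13, -1.42, 0.77, 1.24 and 1.06 in SD+ino. It was lower than t = 0 in both cultures at 15 and 30 min and higher in both at 120 and 240 min. LYS9, saccharopine dehydrogenase, measured -0.76, -1.63, -0.12, 2.06 and 2.03 in SD and -0.03, -0.43, 1.66, 2.75 and 2.23 in SD+ino, where the crossing came earlier in SD+ino.

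The permeases of amino acids and peptides split. AGP1, CAN1, DIP5, PTR2, OPT1, OPT2 and AGP3 rose early, while GNP1, BAP2, TAT1, TAT2, LYP1 and HIP1 fell, with a median of 0.06 over 15 genes. AGP3 and DIP5, which take up several and acidic amino acids, rose by 3.48 and 3.03. TAT1, a tyrosine and tryptophan permease, measured -2.41, -3.07, -3.46, -2.78 and -2.60 in SD and -2.53, -2.83, -2.77, -2.41 and -3.11 in SD+ino, low from the first time point to the last.

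Purine synthesis also split by branch. The 10 members on the way to inosine and adenine nucleotides and in one-carbon metabolism rose, led by ADE17, which catalyses the last steps to IMP (3.54), and ADE2 (2.67), the gene that is mutated in this strain. The 4 members of the guanine branch fell, GUA1 by 4.11, IMD4 by 3.82, IMD3 by 2.40 and IMD2 by 2.28. Genes of the citric acid cycle and retrograde response mostly rose, 15 of 19 with a median of 0.97, and MDH2, the cytosolic malate dehydrogenase, fell by 1.97. PYC1, pyruvate carboxylase, rose by 2.35 and the citrate synthase CIT1 by 1.86.

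General stress genes formed the other large group of risers. Of 37 members 33 rose and 2 fell, with a median of 2.43. HSP12, a small membrane-associated heat shock protein, measured 5.62, 6.64, 5.29, 5.61 and 2.84 in SD and 6.64, 6.30, 6.35, 4.92 and 3.41 in SD+ino. MSC1 measured 5.47, 4.85, 3.72, 2.32 and 0.66 in SD and 5.29, 4.84, 3.31, 1.57 and 0.79 in SD+ino, a steady decline in both. GAD1, glutamate decarboxylase, measured 4.64, 4.32, 2.67, 1.35 and -0.24 in SD and 4.81, 4.14, 2.44, 1.21 and 0.23 in SD+ino, and the cultures lay on either side of 0 at 240 min. The members that fell were BTN2 (-1.20, adjusted p = 4.98e-05) and SSA4 (-0.44, adjusted p = 0.0292), both known from heat shock, and HSP30 measured -0.20 (adjusted p = 0.056). For trehalose and glycogen 20 of 21 rose (median 2.38), led by PGM2, phosphoglucomutase, at 4.63 and GSY2, glycogen synthase, at 3.97. For autophagy and vacuolar proteases 20 of 23 rose and ATG5 fell by 0.52 (median 1.39), with the vacuolar proteinases PRB1 at 3.01 and APE1 at 3.00. The stress, reserve carbohydrate and autophagy genes, 80 in all, gave 60 of the 791 genes that rose 2-fold or more early with 1 sign in both cultures (7.59%).

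The genes that fell early were led by ribosome production. Of 98 ribosome biogenesis genes 96 fell and 0 rose, with a median of -3.40. HCA4, a helicase of small subunit processing, measured -4.77, -5.66, -3.38, -1.59 and -0.43 in SD and -5.61, -4.66, -3.06, -0.88 and -0.80 in SD+ino. NOP7, a factor of large subunit assembly, measured -4.54, -5.01, -3.81, -1.44 and -0.47 in SD and -4.14, -4.88, -3.20, -1.03 and -0.88 in SD+ino. Both genes lay at -4.14 or lower in both cultures at 15 and 30 min. Of 133 cytosolic ribosomal protein genes 127 fell and RPL41B, RPL43B and RPS30A rose, with a median of -2.24. RPS9B measured -3.10, -3.65, -2.56, -1.51 and -0.36 in SD and -2.91, -3.07, -2.0, -0.53 and -0.43 in SD+ino, lowest at 30 min in both. Of 35 genes of RNA polymerases I and III 26 fell and TFC7 and MAF1 rose, with a median of -1.50, and RPA135, a core subunit of polymerase I, fell by 4.52. MAF1, which represses polymerase III, rose by 0.66. Of 19 tRNA synthetases 18 fell and TYS1 rose by 0.33, and of 32 translation factors 30 fell. The translation lists together, 317 genes, gave 281 of the 747 genes that fell 2-fold or more early with 1 sign in both cultures (37.6%) and 1, RPS30A, of the 791 that rose.

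Smaller falls were measured in growth-related groups outside translation. Of 30 DNA replication genes 22 fell and MCM4 rose (median -0.52), of 18 cyclins and G1/S genes 12 fell and PCL1, SIC1 and SWI4 rose (median -0.29), and 7 of 9 histone genes fell (median -0.54). RNR1, the large subunit of ribonucleotide reductase, fell by a mean of 1.97 early. Of 20 glycolysis genes 16 fell (median -0.59), while the hexose and glucose kinases HXK1 and GLK1 and the decarboxylase PDC6 rose. The respiratory chain went up by a small amount, with 26 of 38 genes higher and CYC1 and NDE1 lower (median 0.51). In SD+aa, with amino acids present, the histone median was -0.26 at 15 min and -0.39 at 30 min. Early, limma called 0 of 9 histone genes different from SD+aa, and 1 had an unadjusted p below 0.05. The respiratory chain median in SD+aa was 0.42 at 15 min and 0.015 at 30 min. Early, 16 of 37 respiratory chain genes were called higher than in SD+aa and 2 lower.

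**Figure D2:**
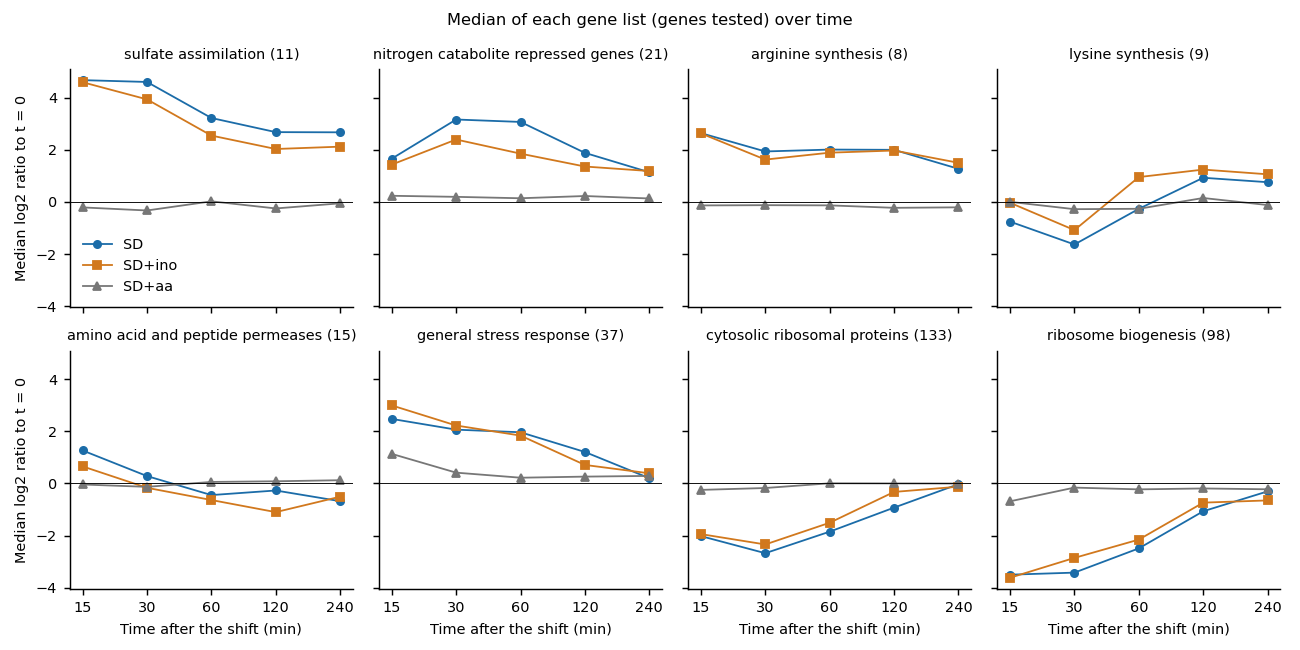
Median log2 ratio to t = 0 over the genes of 8 lists at each time, with 1 line for each of the cultures SD, SD+ino and SD+aa. At 15 min the sulfate assimilation median is 4.67 in SD, 4.59 in SD+ino and -0.21 in SD+aa, and the ribosome biogenesis median is -3.50, -3.62 and -0.69.

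Few genes were called between 15 and 30 min, while 680 had an unadjusted limma p below 0.05. From 15 to 30 min 27 genes rose and 30 fell (1.04% of genes, 0.492% and 0.546%), or 65 and 112 with the culture as a fixed block, which uses the fact that each culture was followed over time. The genes that rose further included DAL2, DAL5, MEP2, PUT1 and UGA4 of the nitrogen-repressed genes and ERG1, ERG3, ERG5, ERG11 and IDI1 of sterol synthesis. DAL80, a GATA repressor that is itself under nitrogen control, rose by 3.33 ± 0.47 between these times (adjusted p = 0.0136), and DAL5 rose by 3.14 and PUT1, proline oxidase, by 2.28. ERG3, a desaturase of ergosterol synthesis, came up by 2.03 from its low level at 15 min, and it measured -2.81, -0.93, 0.07, -0.01 and -0.16 in SD and -2.66, -0.48, -0.14, -0.26 and 0.03 in SD+ino. The genes that fell between 15 and 30 min included ARG1, ARG3 and ARG8 of arginine synthesis and the hexose transporter genes HXT4, HXT6 and HXT7. BAP3, a branched-chain amino acid permease, fell by 3.09 (adjusted p = 0.0269), and the hexokinase HXK1 fell by 2.23 before it rose again.

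From 30 to 60 min 333 genes rose and 153 fell (8.85%, or 6.06% and 2.79%), or 709 and 403 with the culture as a block. Lysine synthesis turned in this interval, with LYS1, LYS2, LYS4, LYS12, LYS20 and LYS21 higher at 60 than at 30 min. The change was 2.03 ± 0.33 for LYS12 (adjusted p = 0.0129) and 1.97 ± 0.29 for LYS4 (adjusted p = 0.0101). Histone genes turned as well, 7 of 9 rising, by 1.20 for HTB2. Among ribosome genes, 39 of the 98 biogenesis genes, 31 of the 133 ribosomal protein genes and 9 of the 19 tRNA synthetase genes rose. The falls included 6 of 11 sulfate genes, 7 of 18 methionine genes and 6 of 15 permeases. SEO1 fell by 3.19 ± 0.50, AGP1, a broad-range amino acid permease, by 3.08, and the methionine permease MUP1 by 2.95.

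From 60 to 120 min 362 genes rose and 176 fell (9.8%, or 6.59% and 3.21%), or 584 and 509 with the culture as a block, and the share that rose was 67.3%. That share was 79.7% with each array centred on its median, 53.4% with the fixed block, and 33.3% of 15 genes after quantile normalization. The rises included 77 of 133 ribosomal protein, 66 of 98 biogenesis and 11 of 35 polymerase I and III genes. RPA135 rose by 2.28 (adjusted p = 0.00488) and NOP7 by 2.27 (adjusted p = 0.00473). The falls included 14 of 37 stress genes, 8 of 21 trehalose and glycogen genes and 12 of 33 proteasome genes, with PGM2 down by 1.81 and GLC3, the glycogen branching enzyme, by 1.70. From 120 to 240 min 0 genes passed limma's threshold (0.0%), with or without the culture as a block, while 396 had an unadjusted p below 0.05 and 721 with the block. From the early mean to 240 min 1349 genes rose and 1622 fell (54.1%), or 1554 and 1916 with the culture as a fixed block. The numbers were 1485 and 1418 with each array centred and 1040 and 955 after quantile normalization, so that which direction had more genes depended on the scaling.

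How fast a gene came back was described for the 791 genes that rose and the 747 that fell 2-fold or more early with the same sign in both cultures at both times. The time of return is the time, by linear interpolation after the peak, at which the mean of both cultures had come back by 50% from its peak. These genes were chosen by their early values, so no test was made. The median was 79.8 min for genes that rose and 82.7 min for genes that fell. The middle 50% of genes lay between 53.9 and 117 min for those that rose and between 70.6 and 92.9 min for those that fell, so the fallers came back more nearly together. Of the fallers, 571 came back by 50% between 60 and 120 min, 136 before and 26 after, and 14 had not done so by 240 min. Of the risers, 286 came back by 60 min, 316 between 60 and 120 min and 106 after, and 83 had not by 240 min. SD+ino came back earlier than SD, with medians of 69.7 against 83.8 min for risers and 73.7 against 89.6 min for fallers, and SD was the slower culture in 567 and 658 genes and the faster in 166 and 77. With 1 culture of each, this difference has no replicate and the part of inositol in it was not tested.

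The groups came back at different times. Ribosomal protein genes came back at a median of 85.5 min (n = 124, range 68.8 to 113 min) and ribosome biogenesis genes at 83.5 min (n = 95, range 59.0 to 114 min), both by 120 min without an exception. Within SD+ino their medians were 78.3 and 72.8 min, within SD 94.2 and 87.7 min. The tRNA synthetases came back earlier, at 64.7 min (n = 14). Among the risers with at least 4 genes, hexose transporter genes had a median of 28.2 min (n = 4), methionine genes of 52.3 min (n = 14) and permeases of 54.8 min (n = 7). Stress genes came back at 94.2 min (n = 30), trehalose and glycogen genes at 87.6 min (n = 17) and autophagy genes at 105 min (n = 14). Arginine synthesis took 219 min (n = 5). Sulfate, nitrogen-repressed, purine and citric acid cycle genes had medians beyond 240 min, with 6 of 11, 9 of 17, 6 of 8 and 6 of 9 risers not back by 50% at 240 min in the mean of both cultures. For sulfate genes this rested on averaging the cultures, since the median was 115.4 min within SD and 86.2 min within SD+ino, and MET3, MET14, MET16 and MET17 lay close to 50% at 240 min. For nitrogen-repressed genes the median was 164.8 min within SD and beyond 240 min within SD+ino, and for purine and citric acid cycle genes it was beyond 240 min within each culture. Synthesis genes of glutamate, glutamine, asparagine and proline (3 of 4 risers not back by 50%) also had a median beyond 240 min. So did regulators of amino acid and nitrogen genes (3 of 5), and both lists did so within each culture.

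**Figure D3:**
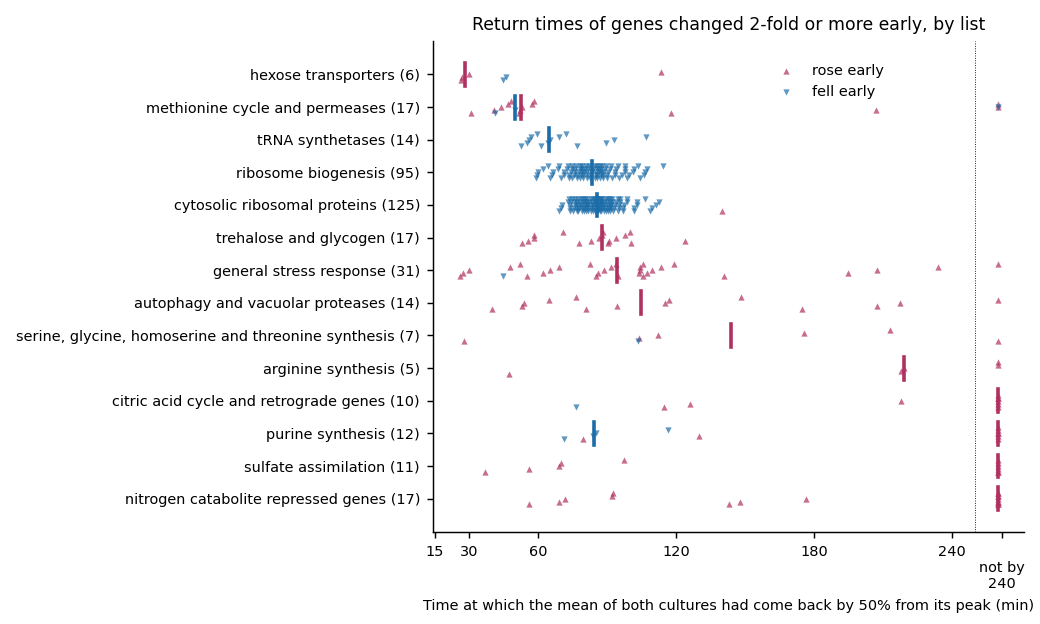
Time in min at which each gene that changed 2-fold or more early had come back by 50% from its peak, for 14 gene lists with the number of genes in brackets. Upward triangles are genes that rose and downward triangles genes that fell, bars are medians of groups of 3 or more, and points right of the dotted line had not come back by 240 min. Ribosomal protein genes lie together around 85.5 min, while 9 of 17 nitrogen-repressed genes lie right of the line.

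Single genes marked the ends of this range. Among genes with an early change of 4-fold or more, 618 in all, the shortest times were those of COS111, RGI1, HXK1, AGP1, ATG41 and PKP2, between 23.4 and 29.9 min. COS111 rests on 1 value at the limit, 6.64 in SD+ino at 15 min against 0.80 in SD, and its early call was lost with quantile normalization (adjusted p = 0.0534) and with the culture as a random block (adjusted p = 0.0523). RGI1, a gene of energy metabolism under respiratory growth, measured 3.22, 1.36, 2.06, 0.65 and -0.22 in SD and 3.59, 1.32, 1.92, 0.97 and 0.27 in SD+ino. HXK1, hexokinase 1, measured 3.81, 1.34, 3.83, 1.67 and 0.28 in SD and 3.68, 1.68, 2.81, 0.65 and 0.44 in SD+ino. Both genes dipped at 30 min and rose again at 60 min in both cultures, so their short times mark the dip and not the end of the response. HSP12 took 233.9 min and stayed the highest of the stress genes. The other end was held by MEP2, TAT1, GDH1, MEP1, GAP1 and SUL1, with 87.0% to 91.7% of the peak left at 240 min in the 5 genes other than MEP2. MEP2 stood at the limit from 60 to 240 min in both cultures, so its place is set by the limit, and the peak of SUL1 was at the limit as well.

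At 240 min 189 of the 791 early risers were still called higher (23.9%) and 116 of the 747 early fallers still called lower (15.5%). A further 597 and 624 no longer passed the threshold, and 5 and 7 were called in the opposite direction. The former were AGP1, MUP1, MSN4, HSU1 and HXT7 and the latter CTP1, FET3, HXT1, LYS12, MAE1, TEF1 and YHM2. The background at 240 min is 6.68% of all genes called higher and 4.59% called lower, and the early selection used other time points of the same cultures against the same t = 0. Of the genes called higher at 240 min 134 were 2-fold or more from t = 0 (2.44% of genes tested), and of those called lower 19 (0.346%). The median share of the peak left was 15.2% in risers and 11.2% in fallers.

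**Figure D4:**
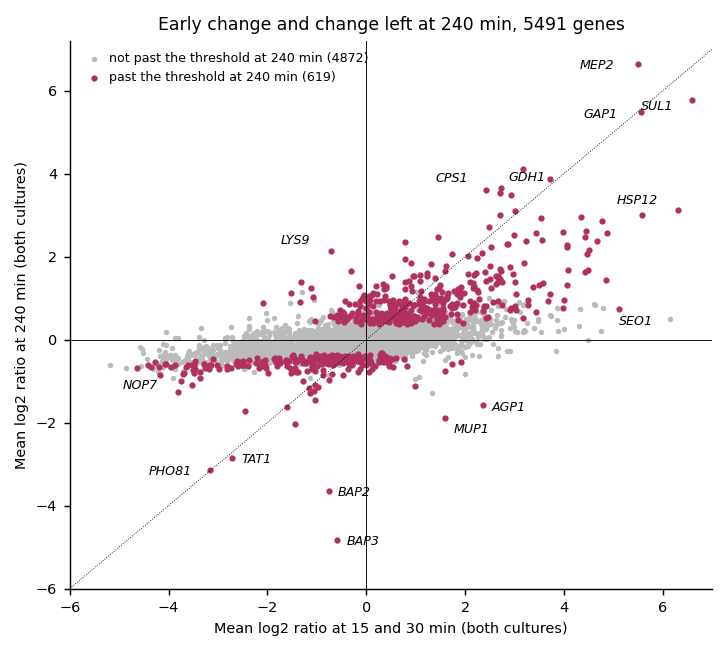
Early log2 ratio (mean of 15 and 30 min) on the x axis against the log2 ratio at 240 min on the y axis for 5491 genes, each the mean of both cultures. The 619 coloured genes were called at 240 min, 367 higher and 252 lower, and most of the other genes lie close to 0 on the y axis wherever they lie on the x axis.

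Among the lists, those of nutrient acquisition and synthesis held the most genes that stayed changed. The amino acid synthesis, sulfur, purine, nitrogen and permease lists, 151 genes, had 74 members called higher and 13 called lower at 240 min. They gave 55 of the early risers that were still higher and 34 of those not back by 50%. The translation lists gave 25 genes called lower and 0 not back by 50%, and the stress, reserve and autophagy lists 12 still higher and CPS1 and HOR7 not back. The 10 highest genes at 240 min began with MEP2 (6.64 ± 0.09, adjusted p = 5.4e-10), SUL1 (5.78 ± 0.25, adjusted p = 2.72e-06), GAP1 (5.48 ± 0.22, adjusted p = 1.86e-06) and DAL5 (4.10 ± 0.37, adjusted p = 0.000205). GDH1 measured 2.21, 2.83, 3.97, 4.26 and 3.83 in SD and 2.53, 3.32, 3.85, 3.92 and 3.47 in SD+ino, higher at every later time than at 15 min in both. CPS1, the vacuolar carboxypeptidase S, measured 1.17, 3.06, 4.71, 4.29 and 3.41 in SD and 1.67, 3.76, 4.58, 4.16 and 3.82 in SD+ino. Of 21 nitrogen-repressed genes 13 stayed higher and CAR1 lower (median 1.16).

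Sulfate assimilation stayed up in 10 of 11 genes, at a median of 2.47, below its early median of 4.44. The rest of the methionine list did not, with 6 of 18 higher (MET2, MET6, MET13, SAM1, SAM2 and MUP3) and MUP1 and SAM4 lower. Arginine genes ARG1, ARG3, ARG4, ARG8 and CPA1 stayed higher (median 1.51), and ARG3 was at 3.01 ± 0.10 (adjusted p = 6.75e-07), a level that did not pass the test of a difference from its early mean of 2.70 (adjusted p = 0.0635). Histidine synthesis had HIS2, HIS3, HIS4, HIS5 and HIS7 higher (median 0.87), and branched-chain synthesis had 9 of 12 higher (median 0.80), LEU1 at 1.30 and LEU2 at 1.17. For the aromatic amino acids 0 of 12 genes were called by limma in either direction at 240 min, and 4 had an unadjusted p below 0.05 (median 0.13). Purine synthesis had 8 of 14 higher, ADE17 at 2.93 and ADE2 at 1.40, and IMD4 lower at -1.28. Of 19 citric acid cycle and retrograde genes 11 were higher (median 0.82), with PYC1 at 2.08 and DLD3, a lactate dehydrogenase of the retrograde response, at 2.06.

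The genes furthest below t = 0 at 240 min were led by permeases. BAP3 measured 1.26, -1.34, -3.96, -3.59 and -4.56 in SD and 0.65, -2.92, -3.91, -4.60 and -5.10 in SD+ino (240 min mean -4.83 ± 0.35, adjusted p = 5.74e-05). BAP2, the other branched-chain permease, measured 0.42, -1.37, -2.16, -3.23 and -3.56 in SD and -0.42, -1.68, -2.88, -3.57 and -3.74 in SD+ino. Both were lower at 240 min than at 30 min in both cultures. TAT2, a tryptophan permease, was at -2.04 (adjusted p = 0.000358). AGP1 measured 3.56, 1.65, -1.63, -1.57 and -1.36 in SD and 2.93, 1.26, -1.62, -1.46 and -1.81 in SD+ino, and MUP1 2.13, 1.65, -1.71, -1.75 and -1.91 in SD and 2.04, 0.55, -1.99, -2.10 and -1.89 in SD+ino. These permeases were up in both cultures at 15 and 30 min and down in both from 60 min on. Of 15 permeases 6 were lower at 240 min, and CAN1, the arginine permease (1.61), and DIP5 (1.10) were higher, where CAN1 was picked out after its values were seen. Outside amino acid transport, PHO81, an inhibitor of the phosphate-responsive kinase, measured -2.66, -3.77, -3.69, -3.28 and -3.08 in SD and -2.50, -3.72, -3.54, -3.12 and -3.19 in SD+ino, the acid phosphatase PHO3 was at -1.72 and the zinc transporter ZRT1 at -1.63.

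Ribosome and stress genes lay closer to t = 0 at 240 min than early. Over all genes, 6.68% were called higher and 4.59% lower at that time. Of the 133 ribosomal protein genes 0 were called by limma at 240 min in either direction and 9 had an unadjusted p below 0.05 (median -0.07), against 127 called lower early. Of 98 biogenesis genes 14 were still lower and 0 higher (median -0.46), NOP7 among them at -0.67 (adjusted p = 0.044). The biogenesis median was -0.31 in SD and -0.65 in SD+ino. In simulated data a change of 0.5 was found in 6.0% of genes at 240 min, so shifts of this size would mostly go uncalled. Of 37 stress genes 7 were higher (HSP12, HSP78, ALD4, MSC1, OM45, HOR7 and APE1) and BTN2 and MSN4 lower. HSP12 was at 3.13 ± 0.31 (adjusted p = 0.000354) and had been at 6.30 early. Of 33 proteasome genes 11 were lower at 240 min (median -0.31), where 7 had been higher and PRE9, PUP2, RPT4 and UMP1 lower early.

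**Figure D5:**
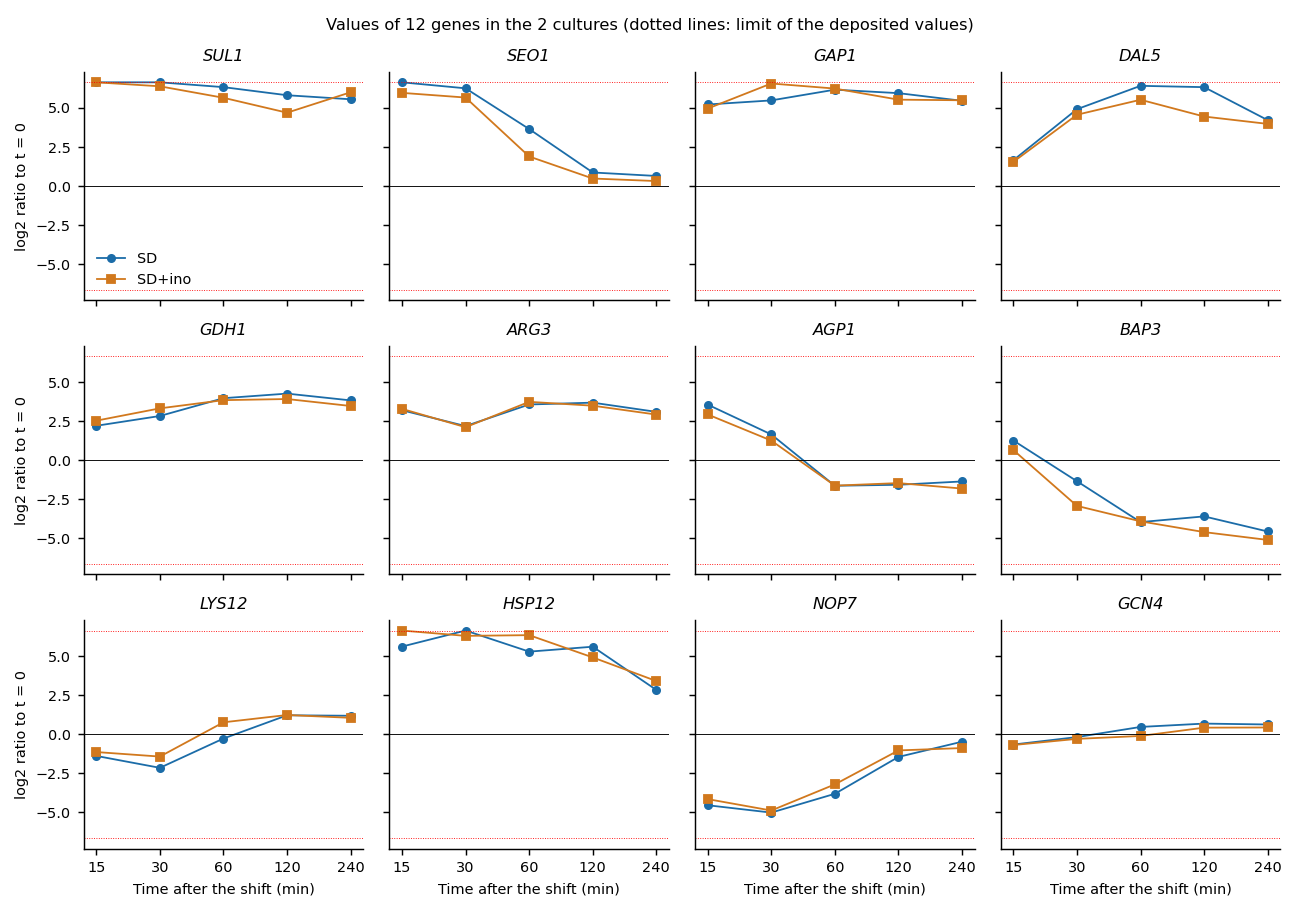
Log2 ratio to t = 0 (y axis) of 12 genes at each time in min (x axis, times evenly spaced) in SD and SD+ino, with dotted lines at the limit of the deposited values. SUL1 stays at 5.56 and 6.01 at 240 min, SEO1 returns to 0.65 and 0.32, and BAP3 ends at -4.56 and -5.10.

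A small set of genes changed sides. Between the early mean and 240 min, 28 genes went from called lower to called higher and 26 from called higher to called lower. Those that ended highest were LYS9 (-0.71 to 2.13), PEX21 (-0.32 to 1.64), the iron uptake oxidase FET3 (-1.33 to 1.39), the citrate transporter CTP1 (-1.11 to 1.23), LYS12 (-1.52 to 1.12) and the glucose transporter HXT1 (-1.07 to 1.03). Those that ended lowest were MUP1, AGP1, the cell wall protein SED1 (0.99 to -1.11), the stress activator MSN4 (1.59 to -0.76), SRL2 and YPS3. MSN4 measured 1.63, 1.57, 0.67, -0.20 and -0.89 in SD and 1.72, 1.45, 0.51, -0.23 and -0.62 in SD+ino, crossing 0 between 60 and 120 min in both. A further 39 genes were called higher and 26 lower at 240 min with no early call. ADH3, a mitochondrial alcohol dehydrogenase, measured -0.71, -0.05, 1.19, 1.48 and 1.20 in SD and -0.28, 0.44, 1.10, 1.53 and 1.36 in SD+ino. ACO1, aconitase, measured -0.60, 0.30, 2.33, 1.63 and 1.15 in SD and -0.09, 0.89, 1.74, 1.32 and 0.99 in SD+ino, with its peak at 60 min in both. YML045W, YML040W and YBR012W-A, genes of Ty elements whose copies share probes, were at 1.29, 1.12 and 1.11, and the proteasome subunit RPN1 was at -0.71 (adjusted p = 0.00301).

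The regulators' own genes changed by less on the median than most of the lists above. Of 22 regulators of amino acid and nitrogen genes 13 rose early and GCN4, BAS1 and ARG80 fell, with a median of 0.37. GCN4 measured -0.65, -0.17, 0.47, 0.69 and 0.63 in SD and -0.68, -0.29, -0.10, 0.43 and 0.44 in SD+ino, lower than t = 0 in both cultures early and higher in both at 240 min (early -0.45, adjusted p = 0.00267, and 0.54 at 240 min, adjusted p = 0.0437). Gcn4 is controlled mainly at translation, which these arrays do not measure. MET28, a cofactor of the sulfur genes, rose by 4.67 early and was at 2.38 at 240 min. GAT1 rose by 2.88 and was at 2.31 (adjusted p = 4.11e-05), DAL80 was at 3.52 at 240 min (adjusted p = 0.000294), and LYS14, the activator of lysine synthesis, was at 0.86 early and 1.41 at 240 min (adjusted p = 0.0051). GZF3 (0.66) and STP2 (0.93) were higher at 240 min as well. Among 10 regulators of ribosome genes CRF1, STB3 and DOT6 rose early, and TOD6, a repressor of ribosome biogenesis genes, fell by 3.42 together with the coactivator IFH1, which fell by 1.44, and FHL1, RAP1 and SCH9. At 240 min 0 of the 10 were called by limma, and 2 had an unadjusted p below 0.05.

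The 2 cultures differed most at 30 min. At that time 280 genes were 2-fold apart, 119 with SD above and 161 with SD below, against 51 at 15 min, 42 at 60 min, 63 at 120 min and 19 at 240 min. Ribosome biogenesis genes were among those lower in SD at 30 min, NSR1 at -5.11 against -2.07, NOG1 at -4.52 against -1.46 and ENP2 at -4.38 against -1.32. At 60 min lysine genes were lower in SD, LYS9 at -0.12 against 1.66 and LYS20 at -0.43 against 0.96. Some of the widest gaps were single values at the limit, among them MPD1 at 15 min (0.01 in SD, 6.64 in SD+ino), SDC25 at 30 min (0.24 and 6.64) and MLP1 at 120 min (-6.64 and -0.13). These genes were picked out by their gaps after the values were seen. INO1, the inositol synthase, measured 0.29, 0.56, 0.60, -0.30 and -0.13 in SD, which lacks inositol, and 0.29, -0.34, -0.14, 0.10 and -0.01 in SD+ino. SD was the higher culture at 30 and 60 min, and the means were not called, at 0.20 early (adjusted p = 0.275) and -0.07 at 240 min (adjusted p = 0.88). The inositol transporter ITR1 was at 0.13 early (adjusted p = 0.132) and 0.21 at 240 min (adjusted p = 0.235). OPI3, a phospholipid methyltransferase, was called higher at both times, 0.38 early and 1.05 at 240 min (adjusted p = 0.00259).

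Part of the early response also came with amino acids present. Against SD+aa, 1569 genes were higher and 1309 lower early in the media without amino acids (53.5% of 5382 genes, 29.2% and 24.3%). The largest differences were SEO1 (6.26 ± 0.43, adjusted p = 6.99e-06), SUL1 (6.12 ± 0.31) and MET3 (5.95 ± 0.25), all of which were near or below 0 in SD+aa except SUL1 at 0.46. Sulfate genes were higher in 10 of 10, ribosome biogenesis genes lower in 93 of 95 (median difference -3.0) and ribosomal protein genes lower in 121 of 130 (median difference -1.98). Stress genes were high in SD+aa as well at 15 min, with a median of 1.13 in that culture. At 30 min the median was 0.41 in SD+aa, against 2.06 in SD and 2.22 in SD+ino. The median difference from SD+aa was smaller than the median early change. HSP12 was at 4.61 in SD+aa against 6.30 (difference 1.69 ± 0.38, adjusted p = 0.0046), MSC1 at 2.52 against 5.12 and GAD1 at 1.99 against 4.48. The list was higher than in SD+aa in 30 of 37 genes, with a median difference of 1.70. BTN2 and SSA4 were lower than in SD+aa, by 1.73 and 1.42. The genes 2-fold higher in SD+aa at 15 min made up 12.4% of the risers here, and those 2-fold lower there made up 6.16% of the fallers.

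At 240 min 57 genes were higher and 10 lower than in SD+aa (1.24%, or 1.06% and 0.186%). The nitrogen-repressed list gave 8 of the 57, the sulfate list 5 of its 10 genes tested, the arginine list 5 of 8 and the glutamate list 4 of 12. MEP2 differed by 6.37 ± 0.16 (adjusted p = 1.01e-07), SUL1 by 5.43 ± 0.44 (adjusted p = 0.000524), GAP1 by 5.22 ± 0.38 (adjusted p = 0.00032), GDH1 by 3.53 (adjusted p = 0.00045) and ARG3 by 2.99 ± 0.18 (adjusted p = 8.58e-05). Of the 10 genes that were lower, 6 were permeases: BAP3 (-5.05 ± 0.61, adjusted p = 0.005), BAP2 (-3.81), TAT1 (-2.95), TAT2 (-2.44), MUP1 (-1.96) and AGP1 (-1.88). The other 4 were PHO81 (-3.02), PHO3 (-1.85), SAM4 (-1.52) and YMR321C. Ribosomal protein, ribosome biogenesis, stress and trehalose genes had 0 members called by limma at 240 min, and 2, 1, 9 and 0 members had an unadjusted p below 0.05. LYS9 was 2.47 above SD+aa with an adjusted p of 0.242 and a 95% interval from 0.87 to 4.06, and HSP12 was 2.29 above with an adjusted p of 0.124, so neither difference passed the threshold with 1 culture of SD+aa.

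The same loss of amino acids took another course in ethanol media. Early, dextrose was higher in 2134 and lower in 1617 genes (69.1% of 5430, 39.3% and 29.8%), and the sulfate list was higher in all 11 genes (median difference 3.92), while ribosome biogenesis was lower in 94 of 96 (median -2.98) and ribosomal proteins in 124 of 132 (median -1.96). At 240 min the calls numbered 2186 higher and 1681 lower (71.2%, 40.3% and 31.0%), with ribosome genes on the other side. Ribosome biogenesis genes were higher in dextrose in 95 genes (median 1.80), ribosomal protein genes in 128 (median 1.92) and stress genes lower in 36 of 37 (median -3.60). HSP12 was at 3.13 in dextrose and 6.21 in ethanol at 240 min, against 6.30 and 1.28 early, so the order of the media turned round. BTN2, a factor of protein aggregate sorting, was lower in dextrose by a difference of -7.02 early (-1.20 against 5.82) and -7.38 at 240 min. LYS9 was 4.06 higher in dextrose at 240 min (adjusted p = 1.7e-06), MEP2 4.41 higher and GAP1 5.48 against 3.24, whereas SUL1 was high in both, 5.78 and 4.64 (difference 1.14, adjusted p = 0.0185).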

How the data were processed

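PolyA RNA was compared on 2-colour cDNA arrays, Cy5 for shifted cells and Cy3 for t = 0 cells per the labels. The deposited values were read as the authors' log10 ratios of shifted over t = 0 cells and multiplied by 3.32 to give log2 ratios. Base, direction and normalization are not given in the sources used here. With base 2, all log2 values would be 3.32 times smaller and the limit 4-fold, and with the ratio turned round all signs would change. Spot intensities were not used, so depth is unknown and the number of arrays limits precision.

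Of 6256 probes 5568 carried 1 gene symbol. Probes of a gene were averaged, and 5491 of 5538 genes had a value in both cultures at all 5 times. The 2 arrays of SD+ino at 240 min carry the same replicate label, 1 of them with the unexplained note ojgrid. They differed by a median of 0.000399 on the log2 scale and were counted as 1. Array medians lay between -0.05 and 0.06, and no further normalization was applied. limma 3.58.1 in R 4.3.3 fitted 1 mean per time (lmFit, eBayes, 5 residual and 3.92 prior degrees of freedom) with Benjamini-Hochberg adjustment over all genes tested. SD+aa (1 culture, assumed to vary like the others) and SEtOH with SEtOH+ino were compared in joint fits. Times of 1 culture are paired by design, and the difference between the cultures correlated over genes between all 10 pairs of times (0.161 to 0.513, median 0.368). The main calls do not use this pairing. Blocked counts are therefore given beside them for changes between times and for the early change.

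The fits were tested on simulated data before use, in which 200 of 5491 genes carried a set log2 size. A size of 0.5 was found in 6.0% of these genes at 240 min and in 62.5% early. A size of 1 was found in 91.0% at 240 min and in 95.5% early. Unchanged genes were also called. At a size of 0.5 these false calls numbered 0 at 240 min and 13 early. At a size of 1 they numbered 17 at 240 min and 17 early, and at a size of 2 they numbered 15 and 15. Apart from the set with 0, false calls were a larger share of all calls than the threshold on adjusted p allows on average. Data with correlation between the times of 1 culture were not tested. The culture pair, the 36 gene lists and the tests were chosen with earlier results of these data known. List counts are over members tested. The named genes are the 12 highest and 12 lowest early, 10 and 10 at 240 min, 6 and 6 each for opposite, late and return times, 8 and 8 against SD+aa and against ethanol, the 4 largest early changes of each list, all regulators, and INO1, OPI3 and ITR1, and some of each are named in the text. Other genes were picked as members of counts of few genes or after their values were seen. Promoter sequences were not analysed here.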

Additional observations from a re-analysis of the deposited data

Results flagged for a closer look

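The response of the media without amino acids differed from that of SD+aa in 2878 genes early and in 67 genes at 240 min, by limma's test of the difference itself with SD+aa as 1 culture. It differed from that of the ethanol media without amino acids in 3751 genes early and in 3867 genes at 240 min by the same kind of test. By number of calls, SD+aa and the media without amino acids thus had far fewer differences at the end than early, while dextrose and ethanol had about as many calls. The early tests average 2 times and those at 240 min rest on 1, so the counts differ in power. With 2-fold required as well, the calls against ethanol were 1271 early and 1927 at 240 min, and against SD+aa 1265 and 65. After quantile normalization the calls against SD+aa were 1912 and 1202.

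Probes that carry no gene symbol lie outside the comparisons above. Of 666 such probes tested, 111 were called early with a change of 2-fold or more, 44 higher and 67 lower, and 5 probes without a symbol were 2-fold from t = 0 in SD+aa.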

How the results depend on the processing

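Alternatives changed the number of genes called, and in some comparisons also which direction had more genes. Over 220 named genes and 3730 re-tested values 0 reversed, 40 lost their call and 114 gained one. With 1 culture alone 152 of 880 values moved by more than the spread between cultures and 0 reversed. Most of these genes were chosen for large changes, many with the same sign in both cultures. A reversal was counted only where a call existed, so reversals were unlikely from the start and their absence says little about other genes. With 1 log2 unit required beside the adjusted p, the calls were 1638 at 15 min, 1460 at 30 min, 1005 at 60 min, 356 at 120 min, 153 at 240 min, 1540 early, 1265 early against SD+aa, and 1271 early and 1927 at 240 min against ethanol. With quantile normalization, which by construction gives early and late arrays the same spread, they were 2343 at 240 min (1263 higher, 1080 lower), 1 from 15 to 30 min, 18 from 30 to 60 min (7 higher, 11 lower), 15 from 60 to 120 min (5 and 10), 15 from 120 to 240 min (4 and 11), 1912 early and 1202 at 240 min against SD+aa (621 and 581 at 240 min), and 2497 at 240 min against ethanol. A separate fit at 240 min, with 1 residual degree of freedom, gave 1156 (637 and 519). With the culture as a random block the changes between times were 156, 1095 and 1037 genes for 15 to 30, 30 to 60 and 60 to 120 min, and with a fixed block 177, 1112 and 1093. The block moved no other count of calls by over 1.5 times. Without the SD culture or without the SD+ino culture, as values with no test, genes 2-fold from t = 0 numbered 1641 to 1731 at 15 min, 1361 to 1715 at 30 min, 963 to 1081 at 60 min, 290 to 561 at 120 min (368 for the mean of both, 561 in SD alone), 154 to 203 at 240 min and 1453 to 1705 early, and genes 2-fold from SD+aa 1208 to 1420 early and 143 to 192 at 240 min. Leaving out 1 culture in turn gave 2851 to 4059 early and 2843 to 4103 calls at 240 min against ethanol. Each culture alone, an alternative added after the data were seen, gave median return times of 69.7 to 83.8 min for risers and 73.7 to 89.6 min for fallers. With an early size of 2 log2 units 44.2% of risers were still called at 240 min, against 23.9%. The alternative window for promoter motifs was not run, since no promoter sequence was analysed. The cause of these shifts was not tested, except where the construction is named. With 2 cultures that differ in inositol, small changes can be missed, and values at the limit hide the size of the largest changes.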
